A study of Homo sapiens with 12 samples.

Results

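Collagens, laminins and their partners in the basement membrane were examined as 61 genes of the 49651 that carried counts. They were chosen by name: every gene symbol of the form COL, number, A, number, every laminin alpha, beta or gamma chain, the nidogens NID1 and NID2, the proteoglycans HSPG2 and AGRN, and MGP. Of these genes 36 had enough reads to be tested. The cells were D283, an established medulloblastoma line, in which messenger RNA was sequenced from 3 control libraries and 3 libraries with ABL1 and ABL2 inactivated. The control group is labelled control and, in the series' design text, received scrambled constructs, and the inactivated group lost function of both tyrosine kinase genes by a genetic method not given in the sources used here. All libraries came from this 1 line, and nothing in the labels tells separate cultures from repeat libraries of 1 culture, so the p-values cover the spread between these libraries alone, which may be technical.

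Collagens are secreted as trimers of alpha chains wound around each other, and the kind of trimer decides the structure that forms. Fibrillar collagens pack into banded fibrils, collagen IV and its relatives join into sheet-like networks, and the FACIT collagens (fibril-associated collagens with interrupted triple helices) sit on the surface of fibrils. Laminins are cross-shaped trimers of 1 alpha, 1 beta and 1 gamma chain that form the first layer of a basement membrane. Nidogens and perlecan, the product of HSPG2, join the laminin layer to the collagen IV network. In the brain such membranes line the pial surface and blood vessels, and neural progenitors contact them.

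Sequencing depth ran from 33505903 to 49034159 counts. Levels are given in CPM, counts scaled to a common library size, and a zero allows up to 3 counts, or 0.0612 to 0.0895 CPM (counting error only), called the floor here. ABL1 fell from 153 ± 4.82 to 61.8 ± 0.620 CPM and ABL2 from 138 ± 5.58 to 104 ± 7.585 CPM (mean ± SD, n = 3 libraries per group here and below). Of 8 marker genes of Group 3 medulloblastoma, among them OTX2 and MYC, 4 rose and 3 fell, and NRL was listed at 0 throughout. Of 10 fibroblast and pericyte markers, cells that make much of the collagen of a tissue, 4 rose and 3 fell. ACTA2 went from 51.8 to 88.3 CPM and TAGLN from 8.77 to 30.2 CPM. PDGFRB went from 32.8 to 18.9 CPM, DCN from 3.27 to 0.979 CPM and FAP from 0.590 to 0.0907 CPM. FAP, 1 of the 3 that fell, reached the filter only through the control group, so its values are a description. The summed level of the 10 markers was 120 to 124 CPM in control libraries and 163 to 179 CPM in inactivated ones. THY1 and POSTN were at or below the floor in each group's mean. Of 8 endothelial markers, cells that lay down basement membrane, 2 were tested and 1 rose. KDR rose from 2.22 to 8.41 CPM, and VWF did not pass (2.01 and 1.86 CPM). The list summed to 4.14 to 4.603 CPM in control and 9.67 to 11.01 CPM in inactivated libraries, with nearly all of the gain in KDR. PECAM1, CDH5, TEK, CLDN5, ERG and EMCN did not reach the filter. Among the 7 epithelial markers KRT8 rose from 18.6 to 252 CPM, and KRT18 went from 0.280 to 3.76 CPM. KRT18 reached the filter only through the inactivated group, so its values are a description. KRT5 was not tested and went the other way, from 0.421 to 0.0901 CPM without overlap. EPCAM and CDH1 were at or below the floor, and KRT14 and KRT19 had at most 5 counts in a library. The list summed to 18.1 to 20.4 CPM in control and 235 to 275 CPM in inactivated libraries, most of it KRT8. The 6 immune markers summed to at most 1.45 CPM in any library, with CD3E at 0. The part of these marker genes in the results that follow was not tested, and in bulk RNA fewer cells of a type and less RNA per cell cannot be told apart.

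Most of the tested members changed. With edgeR's quasi-likelihood test, 30 of 36 tested members (83.3%) passed an adjusted p of 0.05, 19 higher and 11 lower in the inactivated cells, beside 59.3% of all 14704 genes tested. The share that rose was 52.8%, beside 29.6% of all genes, and the share that fell was 30.6%, beside 29.7%. A change of at least 2-fold was seen in 12 members (33.3%), 3 of them the scarce genes named next, beside 12.8% of all genes. Levels did not overlap between the groups for 28 members (77.8%), beside 63.2% of all genes. COL4A6, LAMB3 and COL14A1 reached the filter on low counts only through the group where they are high, so they had to differ, and their folds and p-values are given as descriptions. Without them 17 of 33 members rose and 10 fell, beside 28.8% and 29.3% of the 14226 genes that did not pass in 1 group only. The median log2 fold change of the tested members, inactivated over control, was 0.19, and that of all genes 0.0031. These shares describe the list, and no test of the list against other genes was made.

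**Figure D1:**
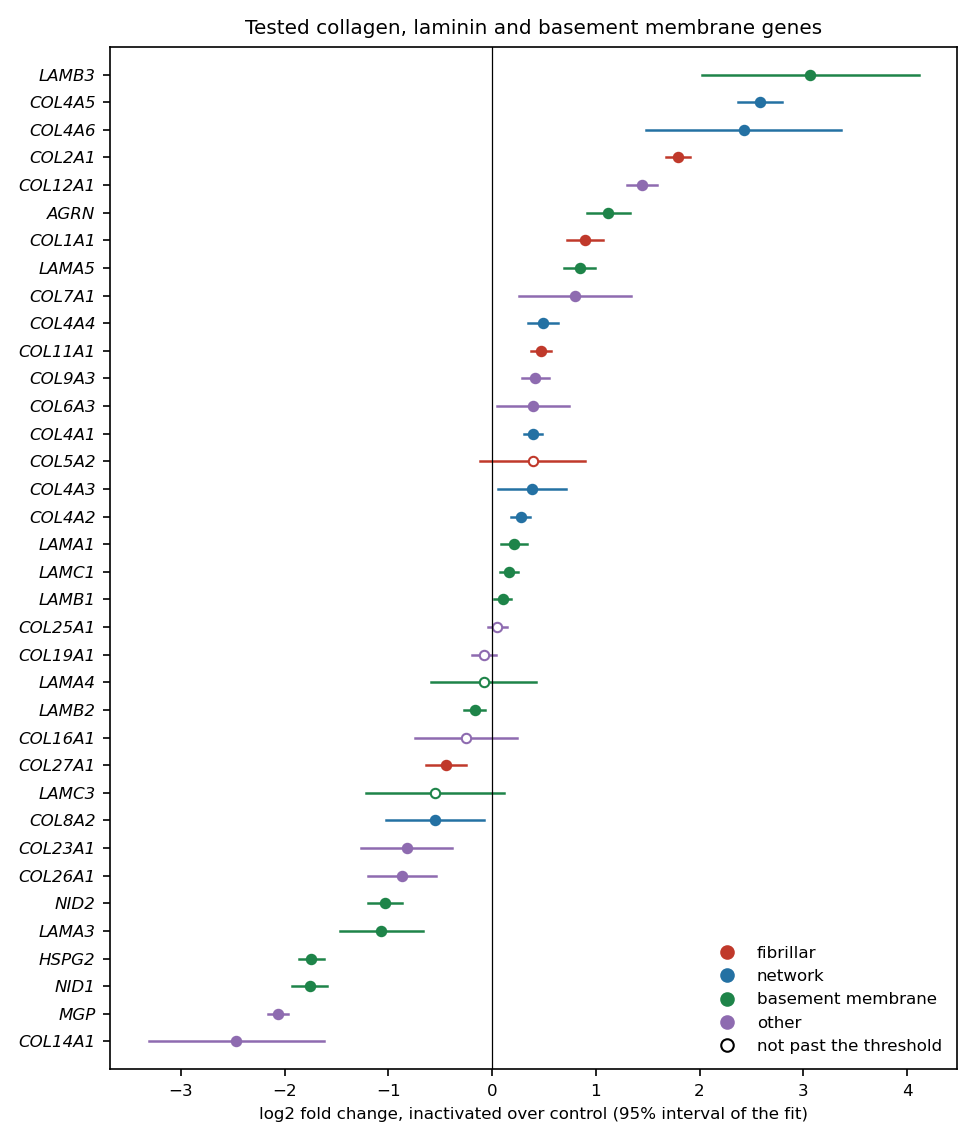
Log2 fold change of each of the 36 tested members with its 95% interval from the fit, coloured by class. Filled points passed an adjusted p of 0.05. COL14A1 and MGP lie lowest and LAMB3 and COL4A5 highest. Without LAMB3 the green basement membrane genes reach from NID1 (-1.76) to AGRN (1.12). LAMB3, COL4A6 and COL14A1 reached the filter only through the group where they are high, so their places are descriptions.

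With collagen IV counted as network, more fibrillar and network genes rose than fell, and about as many basement membrane genes rose as fell. The shares over all genes are 29.6% higher and 29.7% lower. Among 5 tested fibrillar collagens, of 11 in all, 3 rose, 1 fell and 1 did not pass, and their median log2 fold change was 0.47. Of 9 network collagen genes 7 were tested, of which 6 rose and 1 fell, with a median of 0.39, and without COL4A6 5 rose. Of 16 basement membrane genes, meaning laminins, nidogens and proteoglycans, 13 were tested, of which 6 rose, 5 fell and 2 did not pass, and the median was -0.081. Without LAMB3 the counts were 5 and 5, and without control replicate 2 they were 5 higher and 6 lower. This last median is the value of LAMA4 and changes sign without control replicate 2 (0.0053). All 6 network genes that rose are collagen IV chains, which also belong to basement membranes. With them placed in the basement membrane class, 12 of its genes rose and 5 fell, with a median of 0.21. The 12 include COL4A6 and LAMB3, which had to differ because of the filter. The network class then held 0 higher and 1 lower, with a median of -0.55 from COL8A2 alone. The difference between the classes was not tested.

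Summed levels differed in the same way. The fibrillar genes together had 103, 103 and 106 CPM in control libraries and 185, 183 and 182 CPM with ABL1 and ABL2 inactivated. That was 1.76-fold higher on average. COL2A1 alone, at 26.1 and 90.7 CPM, made up most of the gain, while COL27A1 fell from 28.3 to 20.7 CPM. The network genes together had 423, 405 and 423 CPM against 534, 535 and 554 CPM. Nearly all of this was collagen IV, with means of 416 and 540 CPM. Neither class overlapped between the groups. The basement membrane class went from 704 ± 32.9 to 729 ± 13.2 CPM, with overlapping libraries. Its laminins summed to 621 ± 30.8 and 692 ± 14.8 CPM, and its nidogens and proteoglycans to 83.1 ± 2.62 and 36.8 ± 1.85 CPM, neither with overlap. The class total thus held more laminin and less linker and proteoglycan mRNA.

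**Figure D2:**
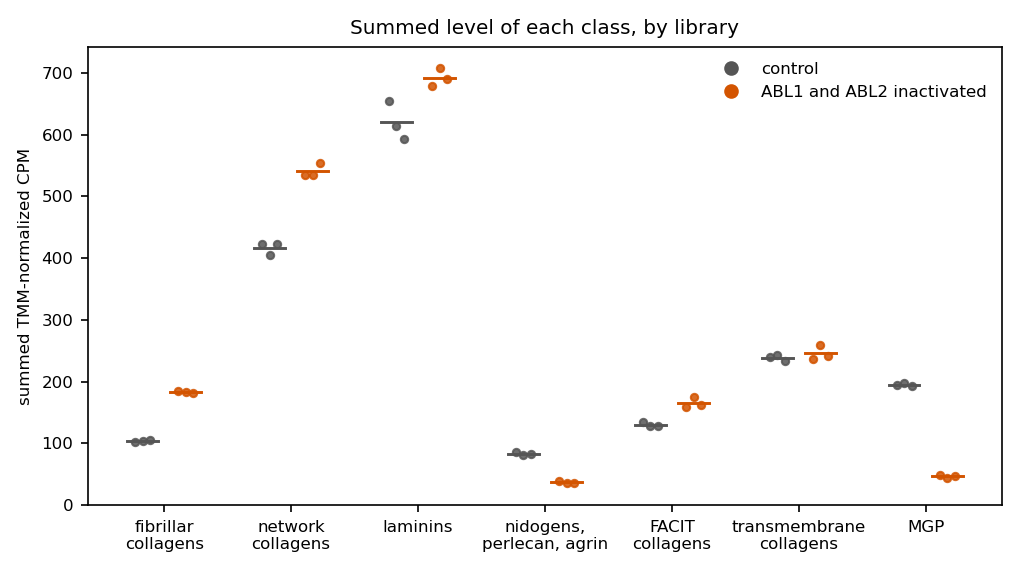
Summed TMM-normalized CPM of the members of a class in each library, with 1 point per library and a bar at the mean of 3. Summed fibrillar and network collagens are higher in the inactivated libraries, and MGP falls from 195 to 46.6 CPM. The sum of nidogens, perlecan and agrin is lower, although AGRN itself rose from 5.03 to 10.95 CPM.

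Collagen IV was the most abundant collagen, and 5 of its 6 chain genes rose, while COL4A6 was higher but too scarce in control cells for a test free of the filter. COL4A1 and COL4A2 encode the alpha1 and alpha2 chains found in nearly all basement membranes. COL4A1 had 174, 168 and 176 CPM in control libraries and 225, 224 and 231 CPM in inactivated ones, a log2 fold change of 0.39 ± 0.0405 (SE, adjusted p 9.9e-08). COL4A2 had 214, 205 and 214 CPM and 255, 246 and 266 CPM, a log2 fold change of 0.28 ± 0.0426 (adjusted p 1.7e-05). In neither gene did the groups overlap, and the rise was modest beside the level. Per kilobase of exon COL4A1 went from 23.2 to 30.4 CPM and COL4A2 from 32.7 to 39.6 CPM.

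The alpha5 and alpha6 chain genes, far scarcer, had the highest folds. COL4A5, whose mutation causes X-linked Alport syndrome, had 3.01, 3.02 and 2.47 CPM in control libraries and 15.7, 18.5 and 16.7 CPM in inactivated ones. That is 5.99-fold higher, with a log2 fold change of 2.58 ± 0.0996 and a 95% interval of 2.37 to 2.79 (adjusted p 6.2e-14). COL4A6 was near the floor, with 3, 2 and 3 counts in control and 13, 24 and 15 counts in inactivated libraries, a ratio of 5.68 (95% counting interval 2.68 to 13.8). Every inactivated library held more of each gene than any control library. On the scale of CPM per kilobase COL4A5 went from 0.370 ± 0.0414 to 2.22 ± 0.181, still far below COL4A1 and COL4A2.

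The alpha3 and alpha4 chain genes, which with alpha5 make the collagen IV of the kidney filter, had smaller folds. COL4A4 had 27.1, 24.4 and 23.9 CPM in control libraries and 32.5, 38.8 and 34.5 CPM in inactivated ones, with a log2 fold change of 0.49 ± 0.0678 (adjusted p 4.6e-06) and no overlap. COL4A3 had 3.63, 3.77 and 4.87 CPM and 5.16, 6.59 and 4.03 CPM, with a log2 fold change of 0.39 ± 0.155 (adjusted p 0.0399). Inactivated replicate 3 of COL4A3 lay below control replicate 3, so the groups overlapped. COL4A3 no longer passed when control replicate 1, control replicate 2 or inactivated replicate 2 was left out (adjusted p 0.164, 0.170 and 0.266).

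**Figure D3:**
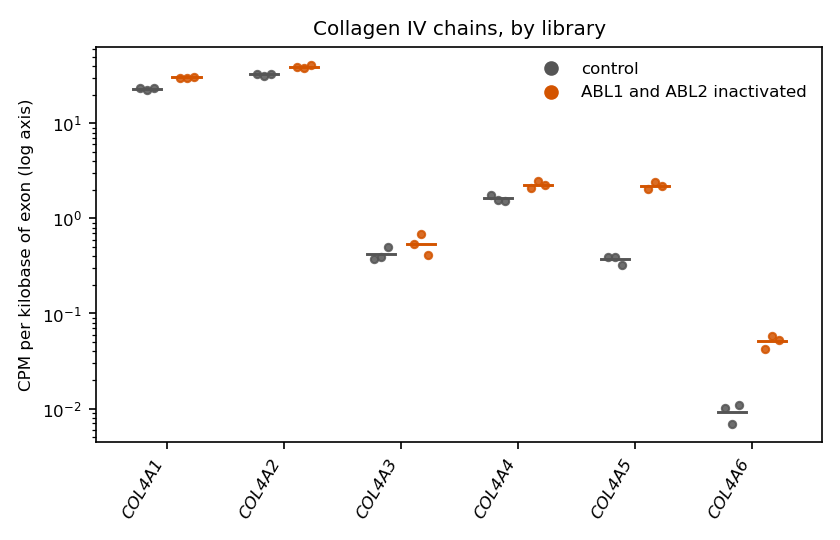
CPM per kilobase of exon of the 6 collagen IV chain genes in each library, on a log axis, with a bar at the mean of each group. COL4A1 and COL4A2 are highest in both groups, and the gap between groups is widest for COL4A5 and COL4A6.

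The 6 collagen IV genes lie as 3 pairs on chromosomes 13, 2 and X, and the genes of a pair start next to each other and run in opposite directions. The stretches between their outermost annotated starts are shown because both genes of each pair were higher on average in the inactivated cells, COL4A5 and COL4A6 by the largest folds. COL4A6 reached the filter only through the inactivated group, so its fold is a description, and the groups overlapped for COL4A3. Bases are on the forward strand of GRCh38.p14 from RefSeq, and capitals mark the motifs GGGCGG (the GC box) and CCAAT (the CCAAT box), found on either strand.
COL4A1 and COL4A2, chr13:110307158-110307283: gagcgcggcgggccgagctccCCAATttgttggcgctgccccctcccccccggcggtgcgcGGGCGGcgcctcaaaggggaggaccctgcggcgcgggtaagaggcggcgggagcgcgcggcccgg
COL4A4 and COL4A3, chr2:227164489-227164623: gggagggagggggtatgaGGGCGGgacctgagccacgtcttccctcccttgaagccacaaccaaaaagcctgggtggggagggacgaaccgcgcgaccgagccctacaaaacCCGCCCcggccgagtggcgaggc
COL4A6 and COL4A5, chrX:108439588-108439837: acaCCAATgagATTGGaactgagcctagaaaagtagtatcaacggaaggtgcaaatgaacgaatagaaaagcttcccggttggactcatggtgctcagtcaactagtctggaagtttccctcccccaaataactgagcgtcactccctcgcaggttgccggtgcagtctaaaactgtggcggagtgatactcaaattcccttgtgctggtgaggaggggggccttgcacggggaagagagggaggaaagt

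The first 2 stretches are the whole 126 and 135 bases between the starts, and the last is the 250 bases next to COL4A5 of the 379 between it and COL4A6. The COL4A1 and COL4A2 stretch was 80.2% G or C with 20 CpG dinucleotides and held 1 GC box and 1 CCAAT box. The COL4A4 and COL4A3 stretch was 68.1% G or C with 11 CpG and held 2 GC boxes. The COL4A6 and COL4A5 stretch was 51.2% G or C with 8 CpG and held 2 CCAAT boxes and no GC box. None held TATAAA on either strand. Among 35116 promoter windows of 300 bases in the same source, 45.0% held GGGCGG, 34.6% CCAAT and 11.5% TATAAA. These windows are longer than the stretches of 126, 135 and 250 bases, so the shares are no like-for-like background. Such matches describe the letters only.

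Among fibrillar collagens COL2A1 rose most. COL2A1 encodes the main collagen of cartilage and of the vitreous of the eye, and lies on chromosome 12 (GRCh38.p14, 47972967 to 48006212, reverse strand). It had 28.2, 23.7 and 26.4 CPM in control libraries and 91.8, 88.1 and 92.2 CPM in inactivated ones, 3.47-fold higher (log2 fold change 1.79 ± 0.0560, adjusted p 3.0e-15). COL11A1, the alpha1 chain of a minor collagen inside cartilage fibrils, had 39.0, 41.7 and 39.0 CPM and 54.2, 56.0 and 55.9 CPM (0.47 ± 0.0477, adjusted p 7.4e-08). Both rose with no overlap between the groups. COL27A1, also a cartilage fibrillar collagen, fell from 25.6, 28.6 and 30.6 CPM to 21.7, 23.4 and 16.9 CPM (-0.44 ± 0.0912, adjusted p 0.00037).

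COL1A1, the alpha1 chain of the main collagen of bone and skin, rose from 8.30, 7.45 and 8.57 CPM to 15.6, 13.9 and 15.8 CPM (log2 fold change 0.89 ± 0.0810, adjusted p 1.6e-08). It lies on chromosome 17 at 50184101 to 50201631, among 74 tested genes within 5 Mb whose median log2 fold change was 0.47, and its own value less that median was 0.42. COL1A2, the partner chain of COL1A1 in the usual type I trimer, had 4, 6 and 7 counts in control and 5, 3 and 3 counts in inactivated libraries, too few to test. Per kilobase COL1A1 thus stood at 1.37 and 2.56 CPM in the groups, and COL1A2 at 0.0326 and 0.0187 CPM. COL5A2, a chain of a collagen that starts fibrils, did not pass although its groups did not overlap (0.684 and 0.891 CPM, log2 fold change 0.39, 95% interval -0.12 to 0.90). COL5A1 had 23 control and 14 inactivated counts, and COL5A3 had 30 and 10, a ratio of 0.291 (counting interval 0.127 to 0.612). COL24A1 had 13 and 18 counts.

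The FACIT collagens went in different directions. COL12A1, which decorates type I fibrils in dense connective tissue, had 19.1, 18.2 and 16.3 CPM in control libraries and 46.3, 53.0 and 46.7 CPM in inactivated ones (log2 fold change 1.45 ± 0.0673, adjusted p 1.0e-12). It lies on chromosome 6, where the 31 tested genes within 5 Mb had a median of 0.51, and its value above that median was 0.93. COL9A3, a chain of the FACIT of cartilage, rose from 27.3 ± 2.08 to 36.4 ± 1.89 CPM (0.42 ± 0.0614), while its partner chains COL9A1 and COL9A2 had 23 and 33 counts over all libraries and were not tested. COL14A1 went from 0.731, 0.489 and 0.752 CPM to 0.0546, 0.121 and 0.175 CPM (-2.46 ± 0.403). COL14A1 had 26, 17 and 25 control counts and 2, 6 and 6 inactivated counts, and it reached the filter through the control group alone, so its fold is a description.

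COL19A1, a rare FACIT found in the embryo and made by some neurons, was abundant in these cells and did not pass. It had 87.6, 81.2 and 80.5 CPM in control libraries and 72.6, 86.4 and 76.8 CPM in inactivated ones (log2 fold change -0.08, 95% interval -0.20 to 0.04), with overlapping groups. Without inactivated replicate 2 it passed as lower (adjusted p 0.0064). COL16A1 did not pass either (1.07 and 0.914 CPM, 95% interval -0.74 to 0.24). COL21A1 had 1, 0 and 0 counts in control libraries and 14, 22 and 9 in inactivated ones, a ratio of 39.3 (counting interval 6.70 to 1587). COL21A1, COL20A1 (3 counts in all) and COL22A1 (1 count) did not reach the filter and were not tested.

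COL25A1 had the highest level per kilobase of the collagens outside type IV in control cells (13.7 CPM, and 14.2 CPM in inactivated cells, where COL2A1 had 15.3 CPM), and it did not pass. It encodes a transmembrane collagen of neurons whose shed form is found in amyloid plaques. It had 238, 241 and 231 CPM in control libraries and 235, 258 and 241 CPM in inactivated ones, with overlap (log2 fold change 0.05, 95% interval -0.04 to 0.14). COL23A1, another transmembrane collagen, fell from 1.93 ± 0.474 to 1.08 ± 0.119 CPM (-0.82 ± 0.210, adjusted p 0.0024), and COL26A1, a small collagen first found in testis and ovary, from 3.34 ± 0.282 to 1.85 ± 0.328 CPM (-0.87 ± 0.156). COL13A1 and COL17A1 had no read in any library, and COL28A1 had 8.

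Scarce collagens with calls that depended on single libraries were COL6A3, COL7A1 and COL8A2. COL6A3, a chain of the beaded filaments around cells, rose from 1.65 ± 0.243 to 2.16 ± 0.0694 CPM (log2 fold change 0.40, adjusted p 0.0482), with an adjusted p between 0.0678 and 0.188 without any 1 library other than control replicate 3. COL7A1, the anchoring fibril of skin, rose from 0.635 ± 0.132 to 1.10 ± 0.234 CPM (0.80, adjusted p 0.0118), which became 0.0592 without control replicate 2 and 0.0567 without inactivated replicate 2. COL8A2, a network collagen of the cornea, fell from 1.39 ± 0.215 to 0.962 ± 0.233 CPM (-0.55, adjusted p 0.0414), with overlapping groups. Its adjusted p was 0.125 and 0.141 without control replicates 1 and 3, and 0.0960 and 0.141 without inactivated replicates 1 and 2. COL6A1 had 16 control and 40 inactivated counts, COL6A2 6 and 12, and COL8A1 14 and 13. COL6A5, COL6A6 and COL10A1 had 2, 2 and 1 counts over all libraries, and COL15A1, 1 of the 2 multiplexins, had 5. COL3A1, COL11A2 and COL18A1 were listed at 0 in every library, but each also has copies on alternate loci in the table, and a read that fits several copies may have been left uncounted, so these 3 zeros were not read as absence.

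Laminin mRNA was dominated by the chains of laminin-111, the trimer of early embryonic basement membranes, and these rose slightly. LAMC1, the gamma1 chain of most laminins, had 239, 233 and 222 CPM in control libraries and 254, 262 and 262 CPM in inactivated ones (log2 fold change 0.17 ± 0.0420, adjusted p 0.0023). LAMA1 had 173, 155 and 139 CPM and 172, 189 and 179 CPM (0.21 ± 0.0601, adjusted p 0.0049). LAMB1 had 154, 146 and 146 CPM and 161, 159 and 158 CPM (0.10 ± 0.0406, adjusted p 0.0394). The groups overlapped for LAMA1 alone of the 3. LAMB1 no longer passed when control replicate 2 or 3 or inactivated replicate 1 or 3 was left out (adjusted p 0.154, 0.139, 0.0891 and 0.0785). LAMC1 lies on the long arm of chromosome 1, where the 48 tested genes within 5 Mb had a median of 0.17, the same shift as LAMC1 itself.

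LAMA5 rose and LAMB2 fell. LAMA5, the alpha chain of adult vascular and epithelial laminins, had 22.0, 18.2 and 20.5 CPM in control libraries and 34.6, 39.7 and 34.7 CPM in inactivated ones, 1.79-fold higher (log2 fold change 0.85 ± 0.0710, adjusted p 5.5e-09). LAMB2, the beta chain of synapse and kidney filter laminins, fell from 62.6, 58.6 and 62.2 CPM to 54.2, 56.1 and 52.6 CPM (-0.17 ± 0.0469, adjusted p 0.0046). Neither overlapped between the groups. The ratio of LAMA1 to LAMA5 per kilobase went from 9.20 to 5.96, and that of LAMB1 to LAMB2 from 2.33 to 2.81, with no overlap between the groups in either. LAMA5 to LAMC1 went from 0.0599 to 0.0959.

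LAMA3 and LAMB3, alpha and beta chains of epithelial laminins, were scarce and went in opposite directions. LAMA3 had 1.72, 2.07 and 1.81 CPM in control libraries and 0.847, 0.927 and 0.876 CPM in inactivated ones (log2 fold change -1.07 ± 0.191, adjusted p 8.7e-05). LAMB3 went from 2, 2 and 1 counts to 14, 25 and 13 counts, a ratio of 9.08 (counting interval 3.65 to 29.1). For LAMB3, on the long arm of chromosome 1, the 68 tested genes within 5 Mb had a median of 0.41. LAMA4, a vascular chain, did not pass (0.821 and 0.782 CPM, 95% interval -0.59 to 0.42). LAMC3, a chain of the pial membrane and retina, did not pass either (0.693 and 0.471 CPM, 95% interval -1.22 to 0.11), although it passed as lower without control replicate 2 (adjusted p 0.0346). LAMA2 and LAMB4 had 14 and 7 counts over all libraries.

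Perlecan and both nidogens fell. HSPG2, which encodes the large heparan sulfate proteoglycan perlecan, lies on chromosome 1 (21822244 to 21937310, reverse strand) and had 50.1, 45.5 and 47.6 CPM in control libraries. In the inactivated libraries it had 14.5, 14.5 and 13.7 CPM. It fell by 70.2% (log2 fold change -1.74 ± 0.0578, 95% interval -1.86 to -1.62, adjusted p 6.8e-15). NID1, which bridges laminin and collagen IV, had 17.1, 17.3 and 16.5 CPM and 5.52, 4.67 and 4.91 CPM (-1.76 ± 0.0813, adjusted p 9.1e-13). NID2, its paralog, had 13.2, 13.4 and 13.4 CPM and 6.72, 6.06 and 6.84 CPM (-1.03 ± 0.0789, adjusted p 1.5e-09). None of the 3 overlapped between the groups. NID1 lies on chromosome 1 at 235975830 to 236065090, among 41 tested genes with a median of 0.31, so it fell by 2.07 relative to its neighbours. The ratio of NID1 to NID2 per kilobase went from 1.09 to 0.658. On the opposite strand 21.9% of NID2 exon bases overlap those of RTRAF, a more abundant gene with a log2 fold change of -0.31, and how strands were counted is not given.

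AGRN, the heparan sulfate proteoglycan that clusters acetylcholine receptors at the neuromuscular junction, rose, unlike HSPG2, NID1 and NID2. It had 5.48, 4.55 and 5.05 CPM in control libraries and 12.1, 10.1 and 10.6 CPM in inactivated ones, 2.18-fold higher (log2 fold change 1.12 ± 0.0987, adjusted p 1.1e-08). The groups did not overlap. Per kilobase AGRN stood at 0.578 CPM against 3.16 CPM for HSPG2 in control cells, and at 1.26 against 0.942 CPM in inactivated cells.

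MGP had the lowest adjusted p of the members. It encodes matrix Gla protein, a small vitamin K-dependent protein that binds mineral and bone morphogenetic proteins and keeps cartilage and arteries from calcifying. It lies on chromosome 12 (14880864 to 14885854, reverse strand) and had 194, 197 and 193 CPM in control libraries. In the inactivated libraries it had 48.3, 44.3 and 47.1 CPM. It fell by 76.1% (log2 fold change -2.07 ± 0.0452, 95% interval -2.16 to -1.97, adjusted p 1.9e-17). The spread within a group was small beside the gap. Per kilobase of its short transcript MGP held 113 CPM in control cells, the highest level of any member, and 26.99 CPM in inactivated cells, below LAMC1, COL4A1 and COL4A2.

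**Figure D4:**
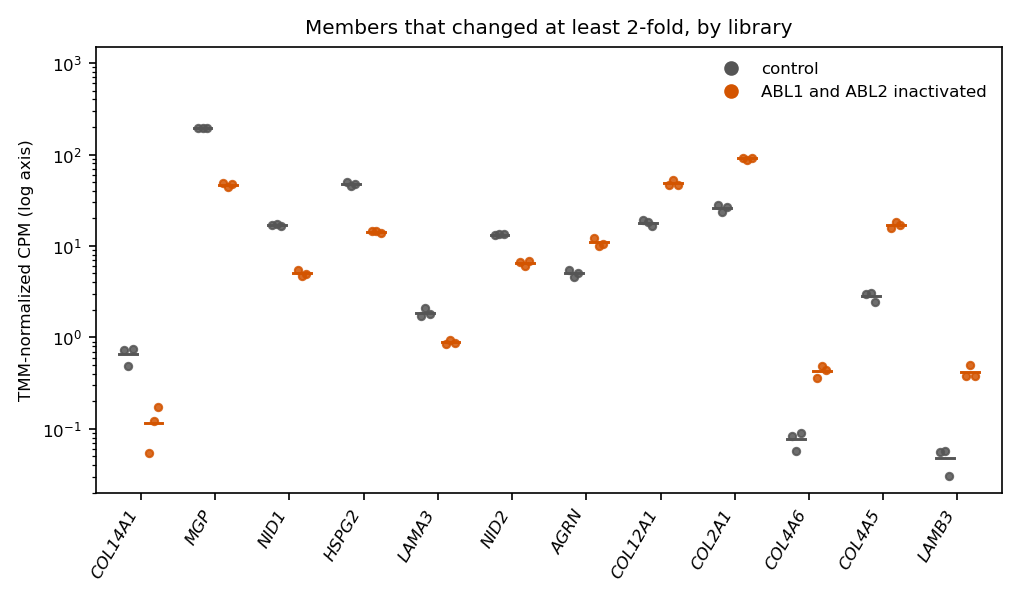
TMM-normalized CPM on a log axis in each library for the 12 members that changed at least 2-fold, ordered by log2 fold change, with a bar at the mean of 3 libraries. The 6 on the left, from COL14A1 to NID2, were lower and the 6 on the right, from AGRN to LAMB3, higher. None overlapped between the groups, but the genes were chosen by fold and adjusted p, so this is a description. LAMB3, COL4A6 and COL14A1 reached the filter only through the group where they are high, so they had to differ.

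Ratios of chains were computed for 11 pairs in which both genes were tested, as the log2 ratio of CPM per kilobase in each library. In 6 pairs the groups did not overlap. Their exact permutation p, two-sided, was 0.1, the smallest that 3 against 3 libraries allow, and 0.183 after Benjamini-Hochberg adjustment over the 11 pairs, so no ratio could pass. For COL4A1 to COL4A2 the ratio was 0.708 in control and 0.768 in inactivated cells, a narrow but non-overlapping shift. For COL4A3 to COL4A4 the ratios of 0.259 and 0.235 overlapped, as did those for COL4A5 to COL4A6, which were 34.2 and 42.6. LAMB1 to LAMC1 was 0.857 and 0.819, and LAMA1 to LAMC1 0.551 and 0.572, both with overlap. LAMB2 to LAMC1 went from 0.368 to 0.292 without overlap. LAMA4 to LAMC1 was 0.00367 and 0.00311, with overlap.

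Genes within 5 Mb of a member had medians from -0.20 to 0.51, and 29 of the 30 members that changed kept their sign relative to their neighbours. The exception was LAMC1, at -0.0047. The median of the neighbour medians was -0.0072, so members with larger changes keep their sign mostly by construction. The 30 include COL4A6, LAMB3 and COL14A1, and no such share was taken over all genes. High neighbour medians were found at COL12A1 (0.51), COL1A1 (0.47), LAMA4 (0.43), COL19A1 (0.41), LAMB3 (0.41) and NID1 (0.31). COL19A1, among 17 tested genes of chromosome 6, lay 0.49 below their median on the log2 scale, and COL25A1, among 34 genes with a median of -0.20, lay 0.25 above it. The part of chromosome position in these values was not tested.

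**Figure D5:**
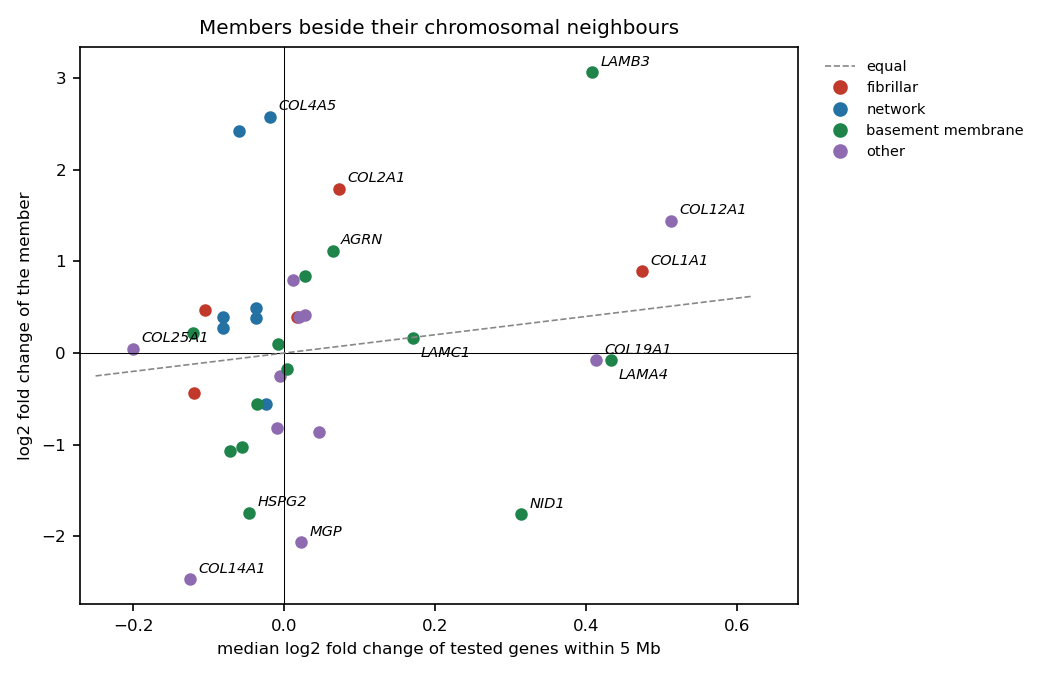
Log2 fold change of each tested member (vertical) against the median of the other tested genes within 5 Mb (horizontal), coloured by class, with a dashed line where they are equal. COL12A1, COL1A1 and LAMB3 lie above the line among raised neighbours, LAMC1 lies on it, and NID1 lies far below.

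Genes that fold, process, bind or accompany these proteins were counted from lists that hold none of the members. No list was tested against other genes. Of 22 genes for collagen modification and folding 21 were tested, of which 4 rose, 10 fell and 7 did not pass, beside 29.6% and 29.7% of all genes higher and lower. Their median was -0.12 on the log2 scale. SERPINH1, the collagen chaperone HSP47, fell from 521 ± 20.3 to 325 ± 22.8 CPM, COLGALT2, a collagen galactosyltransferase, from 7.70 ± 0.579 to 2.16 ± 0.287 CPM, and CRTAP, a partner of prolyl 3-hydroxylase, from 196 ± 2.58 to 136 ± 6.48 CPM, among neighbours with a median of -0.26. MIA3, which helps export bulky procollagen from the endoplasmic reticulum, rose from 77.1 ± 2.58 to 113 ± 3.34 CPM, among neighbours with a median of 0.39. Summed collagen mRNA in the same libraries went from 896 ± 10.6 to 1141 ± 19.1 CPM.

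Of 15 genes for procollagen processing and crosslinking 12 were tested, of which 5 rose, 3 fell and 4 did not pass (median -0.018), with the share called near the 59.3% of all genes. LOX, the lysyl oxidase that crosslinks collagen and elastin, rose from 149 ± 2.90 to 192 ± 5.02 CPM. Its relative LOXL1 fell from 23.5 ± 1.13 to 11.9 ± 1.09 CPM, and LOXL2 from 10.8 ± 0.441 to 4.74 ± 0.380 CPM. LOXL2 acts on collagen IV. PCOLCE, an enhancer of procollagen cleavage and 1 of the 5 counted as higher, went from 0.293 ± 0.126 to 1.74 ± 0.101 CPM. It had 6, 10 and 14 control counts and reached the filter only through the inactivated group, so its values are a description.

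Of 18 receptors for collagen and laminin 16 were tested, of which 4 rose, 7 fell and 5 did not pass (median -0.16), beside 59.3% of all genes called. The 3 laminin-binding integrin subunits with the lowest p fell: ITGA7 from 6.82 ± 0.125 to 0.776 ± 0.219 CPM, ITGA6 from 3.86 ± 0.125 to 0.914 ± 0.111 CPM, and ITGA3 from 7.05 ± 0.308 to 3.30 ± 0.233 CPM. ITGA3 fell among neighbours on chromosome 17 with a median of 0.47. BCAM, a receptor for laminin alpha5, rose from 6.02 ± 0.683 to 12.1 ± 0.407 CPM, in the same direction as LAMA5.

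Of 24 other matrix glycoproteins 19 were tested, of which 6 rose, 8 fell and 5 did not pass (median -0.098). Among all genes 29.6% were higher and 29.7% lower, 59.3% in either direction. FBLN2, a fibulin that binds nidogen and perlecan, fell from 36.2 ± 1.85 to 4.59 ± 0.685 CPM, among neighbours on chromosome 3 with a median of -0.59. SMOC1, a calcium-binding protein of basement membranes, fell from 50.6 ± 1.44 to 24.1 ± 1.005 CPM. FN1, which encodes fibronectin, rose from 4.51 ± 0.431 to 16.9 ± 1.36 CPM, and FBN1, the microfibril protein fibrillin, from 54.9 ± 4.68 to 97.9 ± 1.25 CPM. SMOC2 was listed at 0 in every library. DCN and LUM of this list are also in the fibroblast and pericyte list.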

How the data were processed

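Messenger RNA of D283 cells was sequenced in 12 lane samples, 2 lanes for each of 6 libraries. The authors deposited a table of unnormalized counts for each gene in each lane. Tools named in the submitters' processing notes, without their roles, are STAR 2.7.2b, featureCounts 1.6.3, DESeq2 1.36.0, MultiQC 1.11 and FastQC 0.11.9, with the build GRCh38.p14; strand and multi-mapping settings are not given in the sources used here, and a read fitting 2 genes may be lost. The table lists 49677 genes, 26 of them without counts, which were left out; 0 columns belonged to other samples.

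Lanes were summed. Genes passing filterByExpr (minimum count 10, minimum total 15) were compared with edgeR 4.0.16 across all genes (TMM scaling, quasi-likelihood F test, two-sided, Benjamini-Hochberg adjusted p under 0.05). DESeq2 1.42.0 and limma 3.58.1 (voom) were alternatives. On simulated data of 14704 genes the test recovered 83% of 1.5-fold and 93% of 2-fold changes, and 4.86% of 185 calls were false. There 200 genes were changed and all genes shared a single dispersion, whereas 59.3% of genes were called in these data. The rates describe that setting only. CPM are TMM-normalized; levels per kilobase use the deposited exon length, taken over all annotated isoforms. Chain ratios used 0.5 added counts. Ratios of scarce genes are of summed counts with exact 95% intervals for counting error only. Promoter windows (RefSeq, GRCh38.p14) were matched by symbol for 44 of 61 members.

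Members, classes and lists were chosen with earlier results of these data known. Of the members and marker lists, 1 gene and 1 list are not reported here; every other member was named, and values in each library are given for members past the threshold with a change of at least 2-fold or at least 50 CPM, and for some others chosen after their values were seen. Each list gave up to 4 genes of lowest p.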

Additional observations from a re-analysis of the deposited data

Results flagged for a closer look

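A copy of COL3A1 on an alternate locus, which entered no comparison, had 4, 1 and 0 counts in the inactivated libraries and 0 in each control library. Its highest library, at 4 counts, lies just above the 3 counts that a zero allows. COL3A1 itself was listed at 0 in every library.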

How the results depend on the processing

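No paired analysis was possible because the labels give the libraries of the groups no shared replicate number. Relative log expression size factors, upper quartile scaling and limma-voom changed no member's call. Over 13 fits other than the 1.5-fold null, 21 of the 30 changed members passed in the same direction each time; COL8A2, COL4A3, COL6A3, COL7A1, COL23A1 and LAMB1 lost the call in at least 1, and COL14A1, LAMB3 and COL4A6 were not tested in at least 1. DESeq2 gave 16 members higher and 10 lower, with 0 network members lower. A null of 1.5-fold left 8 higher and 6 lower, with 2 network members higher, 0 network and 0 fibrillar members lower and 3 basement membrane members higher. Without a filter 2 fibrillar members fell. In lane 1 alone the median of the members was 0.13 and of the basement membrane class -0.16, and COL16A1 reversed to 0.052. In lane 2 alone the fibrillar median was 0.62, the basement membrane median reversed to 0.058, LAMA4 reversed to 0.058 and 0 network members fell.

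With collagen IV placed in the basement membrane class, 12 of its members rose and its median reversed to 0.21. The 12 include COL4A6 and LAMB3, which reached the filter only through the inactivated group. The network class then held 0 higher members and a median of -0.55 from COL8A2 alone. With multiplexins and COL7A1 added, the basement membrane median reversed to 0.010. Among members of at least 1 CPM the fibrillar median was 0.68. Minus the median of neighbours, the medians were 0.29 for members, 0.42 for fibrillar and -0.17 for basement membrane genes, and LAMC1 reversed to -0.0047. Leaving out 1 library gave 16 to 19 members higher and 10 to 12 lower, 1 to 2 fibrillar and 0 to 1 network members lower, and 5 to 6 basement membrane genes in each direction. The latter were 5 and 5 by DESeq2, in lane 1, without a filter and at 1 CPM, and 4 higher and 5 lower in lane 2. Leaving out COL4A6, LAMB3 and COL14A1, chosen after seeing the data, gave 17 members higher and 10 lower, with medians of 0.17 for members, 0.39 for network and -0.13 for basement membrane genes. With 1 library left out, and COL4A6, LAMB3 and COL14A1 kept, the median of the members ranged from 0.13 to 0.25. That of fibrillar genes ranged from 0.45 to 0.499, of network genes from 0.37 to 0.51 and of basement membrane genes from -0.14 to 0.0053. In the basement membrane class LAMA4 reversed to 0.0053 without control replicate 2. Of 11 chain ratios 2 moved by more than the spread between libraries in each lane alone, and 0 when a library was left out. The cause of these differences was not tested, beyond the smaller number of counts in 1 lane. Depth limits COL4A6, LAMB3, COL21A1 and COL14A1, which had at most 26 counts in a library.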

Other observations

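The makeup of chain families, as shares of CPM per kilobase summed over a family, differed between the groups within collagens and laminins, as a description with no test. Among fibrillar collagens COL2A1 held 33.1% ± 2.55 of the sum in control cells and 58.5% ± 1.03 in inactivated cells (mean ± SD, n = 3), while COL11A1 went from 31.9% to 22.5% and COL27A1 from 23.2% to 8.61%. COL1A1 held 10.3% and 9.76%. Within collagen IV, COL4A1 and COL4A2 together held nearly all of the sum in both groups, and COL4A5 went from 0.636% ± 0.0807 to 2.95% ± 0.273. LAMA1 held 88.8% and 84.9% of the laminin alpha sum, LAMA5 9.68% and 14.2%, and LAMB1 69.9% and 73.6% of the beta sum. LAMC1 held 99.5% and 99.7% of the gamma sum. Shares within a family move against each other by construction.

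Exon overlap with other genes of the table was found for 16 of the 36 tested members, and it took over 10% of the exon bases of 3, HSPG2, COL23A1 and NID2. The genes overlapping HSPG2 (LDLRAD2) and COL23A1 had means of 0.110 and 0.0328 CPM.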
